A study of Mus musculus with 2 samples.

Results

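The genes described here are 9 of the 32285 genes listed in the count matrices, chosen by symbol: Lag3, Havcr2, Tigit, Ctla4 and Cd160, which encode inhibitory receptors of lymphocytes; Entpd1, which encodes the ectoenzyme CD39; Tox and Tox2, which encode nuclear HMG-box factors; and Rgs16, which encodes a regulator of G-protein signalling. All 9 symbols were present in both libraries. Inhibitory receptors damp signals from the T-cell receptor, and T cells that meet antigen for a long time in a tumour carry several of them at once. TOX is known as a driver of that state, called exhaustion, and TCF1, the product of Tcf7, marks its less differentiated, self-renewing cells. Regulatory T cells carry CTLA-4 as a matter of course, and some of these genes also serve cells that are not T cells, such as Havcr2 and Entpd1 in macrophages.

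Single-cell RNA profiles came from subcutaneous tumours of mice kept on a serine/glycine-free diet (-SG, 1 library) or a control diet (control, 1 library). Per the labels, nothing is known here of the tumour line, of the strain, age or sex of the mice, of the time on the diet, or of how many mice were pooled. The labelled protocol describes human cardiac tissue and CM cells although the samples are labelled as mouse tumour, so the dissociation is uncertain. The study compared the diets for antitumour immunity and for lactylation of PD-L1, a protein mark that RNA counts do not show.

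With 1 library per diet there was no replicate check and no test. Every diet ratio compares these libraries only, and every interval is a 95% interval that covers counting error alone. Values are sums of unique molecular identifiers (UMIs, 1 per captured RNA molecule) over the cells of a gate, scaled to UMIs per 1000000 UMIs of that gate (CPM), and a ratio is serine/glycine-free over control.

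After filtering, 17881 cells of the serine/glycine-free library and 13477 of the control library were analysed, at medians of 7039 (-SG) and 11278 (control) UMIs per cell. The cells of the serine/glycine-free library were therefore shallower, in the gates as well. CD8 T cells, which kill tumour cells, numbered 661 under the serine/glycine-free diet (3.70% of cells, median 1764 UMIs) and 232 under the control diet (1.72%, median 2368 UMIs). There were 32 (-SG) and 27 (control) regulatory T cells, 380 (-SG) and 133 (control) other T cells (CD3 and T-cell receptor genes without Cd8a, Cd8b1 or Foxp3), and 176 (-SG) and 139 (control) natural killer (NK) cells. To compare detection across depths, each cell was thinned to 1000 UMIs. This left out 74 (-SG) and 8 (control) CD8 T cells, 10 (-SG) and 0 (control) regulatory T cells, 150 (-SG) and 31 (control) other T cells, and 12 (-SG) and 4 (control) NK cells that were shallower.

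The gates carried their defining markers. Cd8a was detected in 80.5% of CD8 T cells under the serine/glycine-free diet and 82.3% under the control diet, and Cd3g in 94.9% (-SG) and 97.4% (control). Regulatory T cells had Ikzf2 in 90.6% (-SG) and 92.6% (control) of cells and Il2ra in 59.4% (-SG) and 70.4% (control). NK cells had Ncr1 in 88.6% (-SG) and 95.7% (control). Cd8a, Cd3g and Ncr1 took part in the gates, whereas Ikzf2 and Il2ra did not. Trdc was detected in 39.8% (-SG) and 51.8% (control) of NK cells, and the gate did not separate NK cells from other innate lymphocytes. Other T cells were a mixed group, with Cd4 in only 16.3% (-SG) and 16.5% (control) of cells, and may hold CD8 T cells whose Cd8a and Cd8b1 went undetected. A further 174 (-SG) and 57 (control) T cells with Cd8a or Cd8b1 also had 2 or more UMIs of the NK panel, nearly always Klre1 (98.3% in -SG and 100% in control of them), and were kept outside the CD8 T gate.

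Background was read in cells of other lineages, whose gates admitted no cell with a T or NK panel UMI, so that cells with stray T-cell RNA of these panels were left out. In B cells, Lag3, Havcr2, Tigit, Cd160 and Rgs16 were detected in 0 of 262 cells under the serine/glycine-free diet, which allows a share of cells with a UMI of up to 1.15%, and in 0 of 17 under the control diet, which allows up to 17.6%. Median depths of B cells were 908.5 (-SG) and 1824 (control) UMIs. The other genes were found in B cells, with thinned detection of 2.37% (-SG) and 10.7% (control) for Ctla4, 12.3% (-SG) and 10.2% (control) for Tox, and 8.19% (-SG) and 7.52% (control) for Entpd1, over few cells in the control library. In presumed tumour cells (Hmga2 and Rhox5 positive, median 8921 in -SG and 12814.5 in control UMIs), thinned detection was 0.0384% (-SG) and 0.0336% (control) for Lag3, 0.0724% (-SG) and 0.0499% (control) for Havcr2, 0.919% (-SG) and 0.812% (control) for Ctla4, 0.0399% (-SG) and 0.0308% (control) for Entpd1, and 0.0397% (-SG) and 0.0109% (control) for Tox. Against these, thinned detection in CD8 T cells stood at 18.2% (-SG) and 13.0% (control) for Lag3, 21.4% (-SG) and 11.5% (control) for Havcr2, and 34.2% (-SG) and 25.6% (control) for Ctla4. For Entpd1 the control CD8 T value of 9.74% (6.19 to 14.4) lay within the range of the B-cell intervals. It stood far above the 0.0308% of presumed tumour cells of that library. Whether the Ctla4, Tox and Entpd1 UMIs of B cells were stray RNA or their own was not tested, so these shares are not a measured floor. Tox in CD8 T cells stood above the B-cell intervals at 59.1% (-SG) and 47.7% (control). With such cells kept where the gate's own panel was above both, a setting chosen after seeing the data, 7 (-SG) and 0 (control) B cells and 294 (-SG) and 209 (control) presumed tumour cells were added. Detection in B cells of the serine/glycine-free library was then 3.10% for Ctla4, 13.0% for Tox and 7.71% for Entpd1, and in presumed tumour cells 0.0376% (-SG) and 0.0349% (control) for Lag3 and 0.0714% (-SG) and 0.0499% (control) for Havcr2. Cd160 was then found in 2 of 269 B cells of the serine/glycine-free library.

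**Figure D1:**
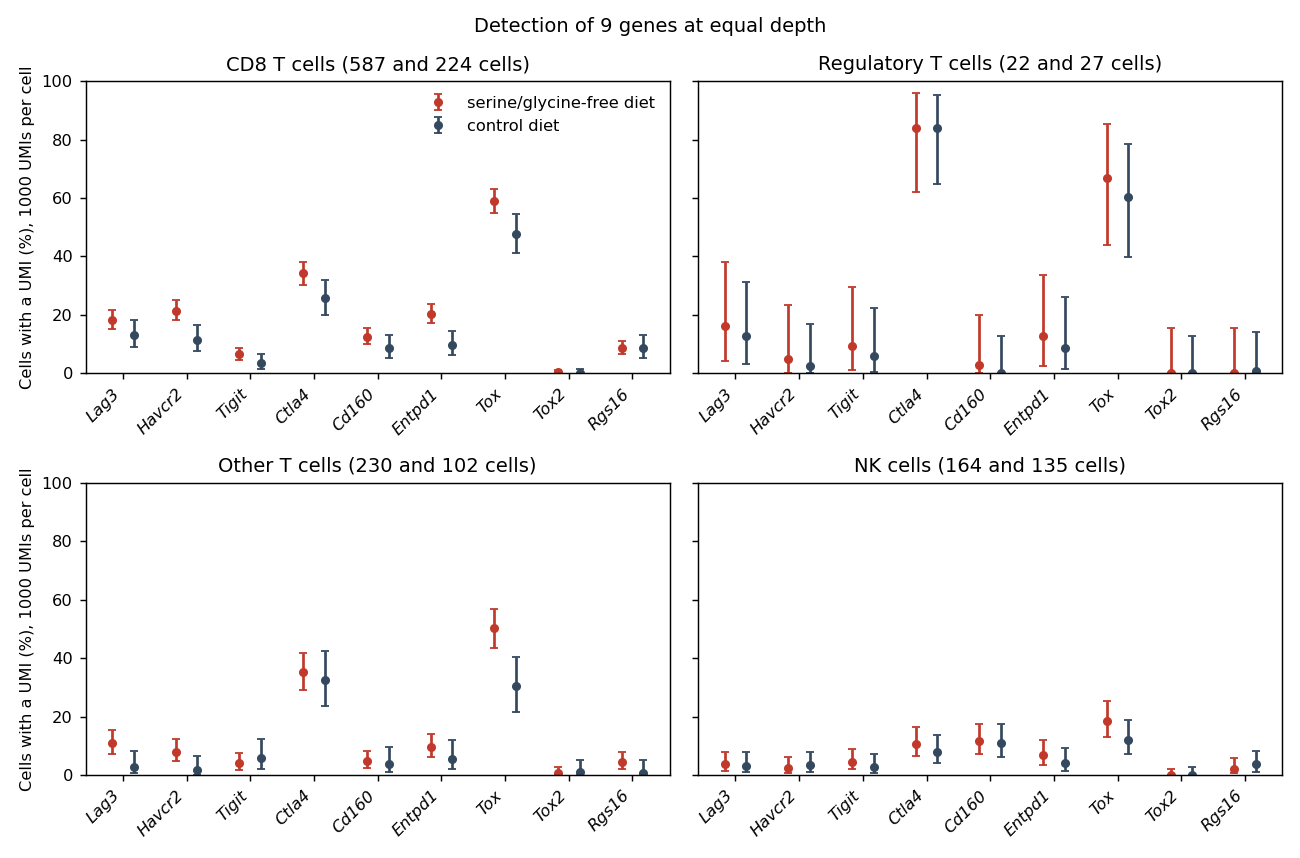
Share of cells with at least 1 UMI of each gene (vertical axis, %), after thinning to 1000 UMIs per cell, in 4 gates; red points are the serine/glycine-free diet, dark points the control diet, bars are 95% Clopper-Pearson intervals, and panel titles give the cells in that order. In CD8 T cells the points of Havcr2, Entpd1 and Tox stand higher under the serine/glycine-free diet with intervals that do not overlap, whereas those of Rgs16, at 8.66% (-SG) and 8.52% (control), lie level.

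In CD8 T cells, 8 of the 9 genes reached 50 UMIs over both libraries, and Tox2 did not. Of these 8, 7 had point values higher under the serine/glycine-free diet and Rgs16 was lower. At least 1.5-fold higher were 4: Entpd1, Havcr2, Cd160 and Tigit. Of 6029 genes with at least 50 UMIs in the same cells, 6.3% were as much higher and 3.98% as much lower, and none of the 8 was as much lower. The median log2 ratio of the 8 was 0.48, beside 0.03 for all 6029 genes, of which 3271 were higher. Cd160 and Tigit lay at 1.52-fold and 1.51-fold, just past that limit, while Ctla4, the next gene below it, lay at 1.29-fold. The count of 4 was 2 under 4 of the alternatives tried.

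Havcr2 encodes TIM-3, a receptor of late, terminally differentiated T cells. It had 408 UMIs in 31.6% (28.1 to 35.3) of CD8 T cells under the serine/glycine-free diet, against 115 UMIs in 22.4% (17.2 to 28.3) under the control diet. Its level was 288 CPM under the serine/glycine-free diet and 171 CPM under the control diet, a ratio of 1.68 (1.36 to 2.09), log2 0.75. At equal depth the shares were 21.4% (-SG, 18.2 to 25.0) and 11.5% (control, 7.65 to 16.4), which do not overlap. Thus both the level and the share of positive cells stood higher in the serine/glycine-free library.

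Lag3 encodes a receptor that binds MHC class II. It had 271 UMIs (191 CPM) in 30.9% of CD8 T cells under the serine/glycine-free diet and 105 UMIs (157 CPM) in 29.7% under the control diet. The ratio of 1.22 (0.973 to 1.55) has an interval that includes 1, so no difference was detectable at this depth.

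Tigit, whose product competes with the activating receptor CD226 for the ligand PVR, had 83 UMIs (58.6 CPM) in 11.2% of CD8 T cells under the serine/glycine-free diet and 26 UMIs (38.8 CPM) in 9.05% under the control diet. Its ratio of 1.51 (0.963 to 2.45) also includes 1. Ctla4, whose product takes the ligands CD80 and CD86 from the costimulator CD28, had 697 UMIs (492 CPM) in 48.6% of CD8 T cells under the serine/glycine-free diet and 256 UMIs (382 CPM) in 44.4% under the control diet. The ratio was 1.29 (1.12 to 1.49), and thinned shares were 34.2% (-SG, 30.4 to 38.2) and 25.6% (control, 20.0 to 31.9). Ctla4 was thus higher under the serine/glycine-free diet by level and, at equal depth, with shares that overlap little.

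Cd160, whose product binds HVEM and is shared by CD8 T cells and NK cells, had 196 UMIs (138 CPM) in 22.2% of CD8 T cells under the serine/glycine-free diet and 61 UMIs (90.9 CPM) in 20.3% under the control diet. The ratio was 1.52 (1.14 to 2.06). Thinned shares of 12.6% (-SG, 9.99 to 15.5) and 8.69% (control, 5.35 to 13.2) overlapped.

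Entpd1 had the widest diet ratio of the 8 genes in CD8 T cells. CD39, its product, splits extracellular ATP and ADP as the first step towards adenosine, which inhibits T cells. It had 354 UMIs (250.0 CPM) in 31.5% (27.9 to 35.2) of CD8 T cells under the serine/glycine-free diet and 87 UMIs (130 CPM) in 23.3% (18.0 to 29.3) under the control diet. The ratio was 1.93 (1.52 to 2.47), log2 0.95. At equal depth Entpd1 was detected in 20.3% (-SG, 17.1 to 23.7) and 9.74% (control, 6.19 to 14.4) of cells.

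Havcr2 and Entpd1 are also genes of myeloid cells, where Havcr2 stood at 86.3 CPM under the serine/glycine-free diet and 73.7 CPM under the control diet, and Entpd1 at 156 (-SG) and 99.2 (control) CPM. All of these lie below the levels in CD8 T cells of the same library. The 6 myeloid panel genes together reached 203 CPM (all 6 with a UMI) in CD8 T cells of the serine/glycine-free library and 96.9 CPM (5 of 6, Csf1r at 0) in those of the control library. That is 0.721% (-SG) and 0.370% (control) of the panel's level in myeloid cells. The part of myeloid RNA in these ratios was not tested.

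Tox was detected in most CD8 T cells. It had 1579 UMIs (1115 CPM) in 73.4% (69.8 to 76.7) of cells under the serine/glycine-free diet and 604 UMIs (900.3 CPM) in 63.8% (57.2 to 70.0) under the control diet. The ratio was 1.24 (1.13 to 1.36), with thinned shares of 59.1% (-SG, 55.0 to 63.1) and 47.7% (control, 41.0 to 54.5). Tox2, its relative, had 6 UMIs in 6 cells under the serine/glycine-free diet and 0 UMIs under the control diet. Tox2 was thus nearly undetected in CD8 T cells, and no ratio is given.

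Rgs16, whose product speeds the shutdown of G-protein signals from chemokine and other receptors, went the other way by level. It had 151 UMIs (107 CPM) in 106 of 661 CD8 T cells under the serine/glycine-free diet and 95 UMIs (142 CPM) in 49 of 232 under the control diet, a ratio of 0.753 (0.579 to 0.984). At equal depth it was detected in 8.66% (-SG, 6.51 to 11.2) and 8.52% (control, 5.21 to 13.0) of cells, so the shares were close while the level was lower.

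**Figure D2:**
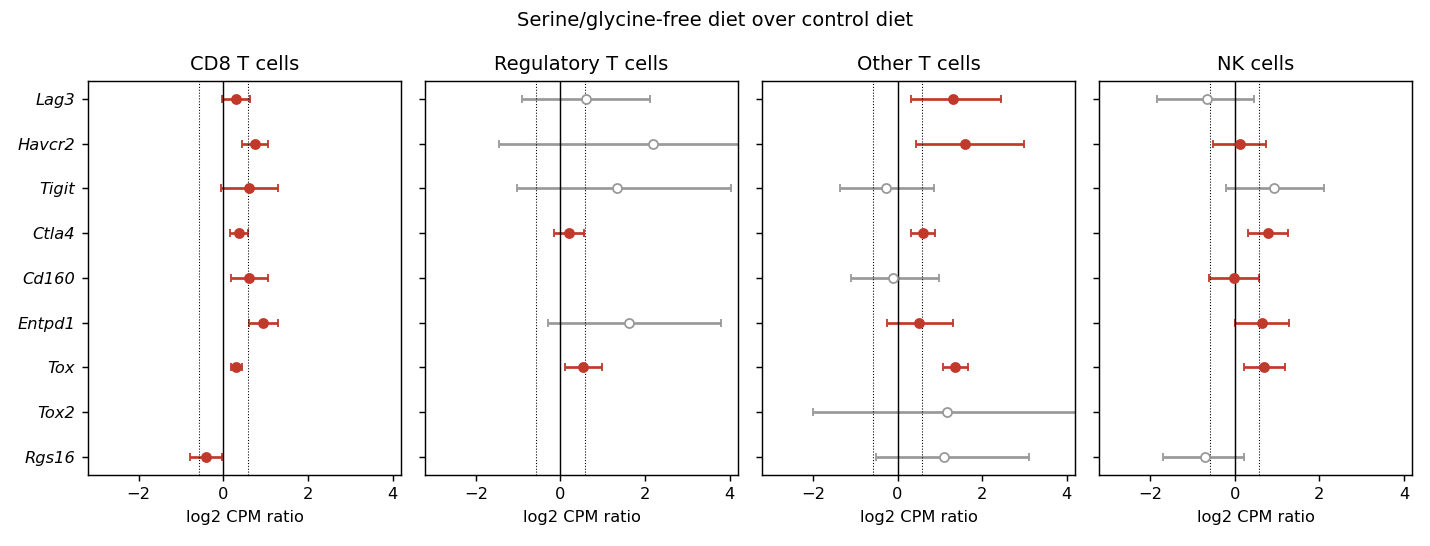
log2 CPM ratio of the serine/glycine-free over the control library (horizontal axis) for each gene in 4 gates, with 95% counting intervals; filled red points have at least 50 UMIs over both libraries, open grey points fewer, dotted lines mark 1.5-fold, genes with 0 UMIs in a library have no point, and some wide intervals run past the axis. Most filled points lie right of 0, with Rgs16 at -0.41 in CD8 T cells and Tox at 1.36 in other T cells.

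The start-site sequences of the 4 genes that were at least 1.5-fold higher in CD8 T cells are shown to compare them for motifs of factors that act on such genes. Each line holds the 250 bases before a RefSeq start site in GRCm38.p6, 5′ to 3′ on the gene's strand. Capitals mark TGANTCA (the AP-1 motif) or GGAAA (the NFAT core, TTTCC on the other strand), searched on both strands.
Havcr2 (chr11:46454681-46454930, + strand): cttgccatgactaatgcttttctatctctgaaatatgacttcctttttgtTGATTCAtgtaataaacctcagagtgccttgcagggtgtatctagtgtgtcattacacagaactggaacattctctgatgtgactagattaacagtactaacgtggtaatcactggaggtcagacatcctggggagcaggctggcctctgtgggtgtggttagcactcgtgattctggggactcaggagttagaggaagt
Tigit (chr16:43664185-43664434, - strand): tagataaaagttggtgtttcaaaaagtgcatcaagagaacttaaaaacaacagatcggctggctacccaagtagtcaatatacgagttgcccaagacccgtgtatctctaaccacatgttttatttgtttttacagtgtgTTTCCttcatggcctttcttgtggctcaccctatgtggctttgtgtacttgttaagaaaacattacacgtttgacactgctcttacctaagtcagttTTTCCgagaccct
Cd160 (chr3:96814522-96814771, - strand, the start site inside the gene): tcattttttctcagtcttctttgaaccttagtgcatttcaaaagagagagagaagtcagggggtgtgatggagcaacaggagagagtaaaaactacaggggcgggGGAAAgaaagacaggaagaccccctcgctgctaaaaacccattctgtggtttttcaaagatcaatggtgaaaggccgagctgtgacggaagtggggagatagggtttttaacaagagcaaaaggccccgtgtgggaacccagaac
Entpd1 (chr19:40659520-40659769, + strand, the start site inside the gene): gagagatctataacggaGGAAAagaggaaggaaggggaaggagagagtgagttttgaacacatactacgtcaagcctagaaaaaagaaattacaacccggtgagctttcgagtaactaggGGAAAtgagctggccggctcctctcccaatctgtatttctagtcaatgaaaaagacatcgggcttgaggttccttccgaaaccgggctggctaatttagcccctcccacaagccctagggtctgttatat
Havcr2 had an AP-1 motif that begins 200 bases before its start and no GGAAA. The windows of Tigit and of the inner start of Entpd1 each held 2 GGAAA matches, and that of Cd160 held 1. The outer start sites of Cd160 and Entpd1 held none of the motifs searched. GGAAA occurs in 55.6% of 32851 mouse windows of this length, TGANTCA in 6.75%, and AAAGGTCA, the NR4A response element, in 1.34% and in none of the windows of the matched genes. The 4 windows thus shared no motif of the set, and a match describes letters only. RefSeq windows were matched for 7 of the 9 genes, not for Lag3 and Tox.

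In the GENCODE annotation of GRCm38, Havcr2 lies at chr11:46454935-46481255 on the + strand, Entpd1 at chr19:40612366-40741602 (+), Tigit at chr16:43648867-43664146 (-) and Cd160 at chr3:96798763-96829351 (-). Lag3 lies at chr6:124904361-124911705 (-), Ctla4 at chr1:60887000-60915832 (+), Tox at chr4:6686353-6991557 (-), Tox2 at chr2:163203125-163324170 (+) and Rgs16 at chr1:153740349-153745468 (+). Pdzk1 overlaps Cd160, Gm11802 overlaps Tox and Gm28513 overlaps Rgs16, each on the opposite strand, while AC166063.1 overlaps Entpd1 on the same strand, so reads of the last pair could be split or lost in counting.

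The diet ratios of Havcr2 and Entpd1 were wider in CD8 T cells without transcripts of proliferation genes. Cells with a UMI of Mki67 or Top2a, genes of proliferating cells, made up 202 of 661 CD8 T cells under the serine/glycine-free diet and 77 of 232 under the control diet. In cells with neither, Havcr2 stood at 319 CPM under the serine/glycine-free diet and 130 CPM under the control diet, a ratio of 2.45 (1.78 to 3.45). In cycling cells it stood at 250 (-SG) and 215 (control) CPM, a ratio of 1.16 (0.870 to 1.56), and the intervals of these ratios do not overlap. The difference between the ratios was not tested.

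Entpd1 showed the same order. In non-cycling cells it stood at 296 CPM under the serine/glycine-free diet and 107 CPM under the control diet, a ratio of 2.77 (1.95 to 4.03), against 193 (-SG) and 154 (control) CPM in cycling cells, a ratio of 1.25 (0.896 to 1.78). Rgs16 was lower under the serine/glycine-free diet in cycling cells, at 101 (-SG) and 175 (control) CPM (0.577, 0.398 to 0.840), and level in non-cycling cells, at 111 (-SG) and 110 (control) CPM (1.01, 0.683 to 1.52). Tox had ratios of 1.15 (1.0 to 1.32) in cycling and 1.33 (1.16 to 1.52) in non-cycling cells, whose intervals overlap. Non-cycling cells were also shallower, at medians of 1523 (-SG) and 1934 (control) UMIs against 2792.5 (-SG) and 3898 (control) in cycling cells.

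**Figure D3:**
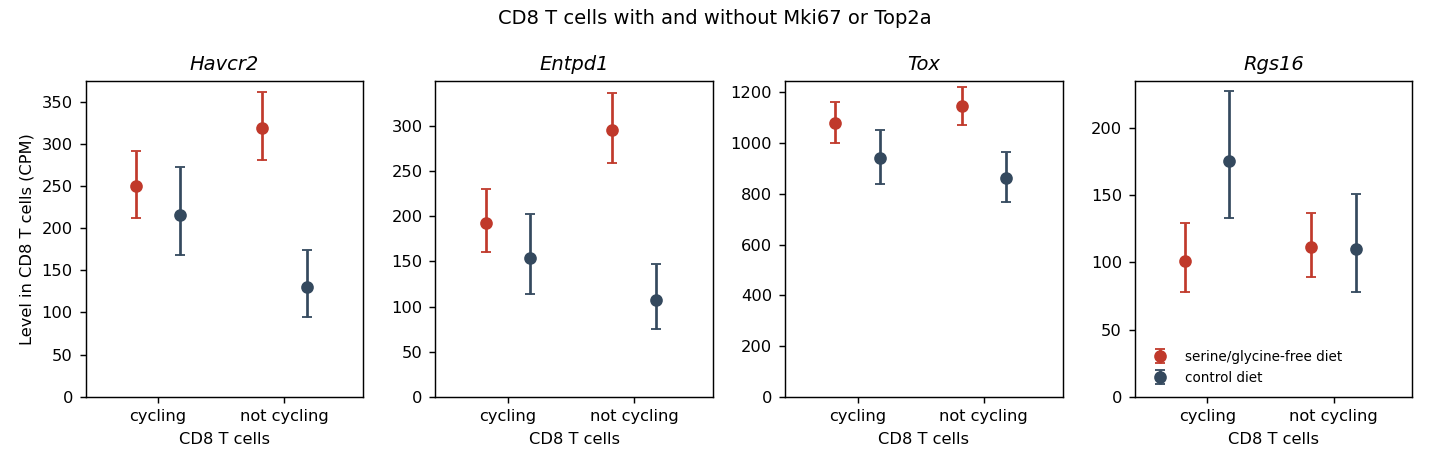
Level (CPM, vertical axes from 0) of Havcr2, Entpd1, Tox and Rgs16 in CD8 T cells with a UMI of Mki67 or Top2a (cycling) and without (not cycling), serine/glycine-free diet in red and control diet in dark, with 95% Poisson intervals of 1 library each. The gap for Havcr2 and Entpd1 is wide in non-cycling cells (319 in -SG and 130 in control CPM, 296 in -SG and 107 in control CPM), whereas Rgs16 parts in cycling cells (101 in -SG and 175 in control CPM).

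CD8 T cells were also split by Pdcd1, which encodes the receptor PD-1. With a Pdcd1 UMI there were 383 cells under the serine/glycine-free diet and 129 under the control diet, and without one 278 (-SG) and 103 (control). Tox in Pdcd1-positive cells had 1230 CPM under the serine/glycine-free diet and 1144 CPM under the control diet, a ratio of 1.08 (0.966 to 1.20). In Pdcd1-negative cells it had 900.2 CPM under the serine/glycine-free diet and 475 CPM under the control diet, a ratio of 1.90 (1.54 to 2.35). The ratio of Tox was thus wider in cells without a detected Pdcd1 transcript, a difference that was not tested and whose cells were shallower. Their median depth of 1536.5 (-SG) and 1921 (control) UMIs stood against 1963 (-SG) and 2674 (control) in the positive cells.

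Havcr2 and Entpd1 stood higher in the serine/glycine-free library on both sides of that split, with ratios of 1.60 (1.26 to 2.05) and 1.76 (1.35 to 2.33) in Pdcd1-positive cells and 1.91 (1.24 to 3.03) and 2.57 (1.49 to 4.70) in Pdcd1-negative cells. Rgs16 was lower in Pdcd1-positive cells, at 120 (-SG) and 202 (control) CPM (0.597, 0.446 to 0.800). In Pdcd1-negative cells it had 40 UMIs under the serine/glycine-free diet and 9 under the control diet (2.2, 1.05 to 5.16), which is under 50 UMIs in all.

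The CD8 T cells set apart by NK-panel genes gave partly different values. Among the 174 cells under the serine/glycine-free diet and 57 under the control diet, Havcr2 stood at 379 (-SG) and 243 (control) CPM (1.56, 1.15 to 2.14), Tox at 1315 (-SG) and 989 (control) CPM (1.33, 1.14 to 1.55), and Cd160 at 125 (-SG) and 57.4 (control) CPM (2.18, 1.19 to 4.31). Ctla4 was lower there, at 476 CPM in the serine/glycine-free library and 622 CPM in the control library (0.765, 0.621 to 0.947), opposite to its ratio in the CD8 T gate. Mki67 was detected in 37.4% (-SG) and 35.1% (control) of these cells, against 20.9% (-SG) and 24.1% (control) in the CD8 T gate, without thinning. The cells with NK-panel UMIs were also deeper, at medians of 2768.5 (-SG) and 3682 (control) UMIs against 1764 (-SG) and 2368 (control).

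In regulatory T cells only Ctla4 and Tox reached 50 UMIs. Ctla4 was detected in 28 of 32 cells under the serine/glycine-free diet (87.5%, 71.0 to 96.5) and 26 of 27 under the control diet (96.3%, 81.0 to 99.9). Its levels of 2617 (-SG) and 2284 (control) CPM gave a ratio of 1.15 (0.895 to 1.46). Thinned detection was 83.9% in both libraries, so no diet difference in Ctla4 was detectable in these cells.

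Tox in regulatory T cells had 85 UMIs (1885 CPM) under the serine/glycine-free diet and 89 UMIs (1295 CPM) under the control diet, a ratio of 1.46 (1.07 to 1.98). Of 309 genes counted in this gate, 10.7% were at least 1.5-fold higher and 9.71% at least 1.5-fold lower, while 0 of the 2 genes passed either limit. The median log2 ratio was 0.37 for the 2 and -0.05 for the 309. Tigit, known as a receptor of regulatory T cells, had 5 (-SG) and 3 (control) UMIs, at 111 (-SG) and 43.6 (control) CPM. Lag3 had 9 (-SG) and 9 (control), at 200 (-SG) and 131 (control) CPM. Entpd1 had 8 (-SG) and 4 (control), at 177 (-SG) and 58.2 (control) CPM. Havcr2 had 3 (-SG) and 1 (control), at 66.5 (-SG) and 14.5 (control) CPM. Rgs16 had 0 (-SG) and 1 (control) UMIs, Cd160 1 (-SG) and 0 (control), and Tox2 none. These counts are too few to compare the diets. Mki67 was detected in 3.12% of regulatory T cells under the serine/glycine-free diet and 22.2% under the control diet, and its part in the Tox values was not tested.

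Among other T cells, 5 of the 9 genes reached 50 UMIs over both libraries. All 5 had point values higher under the serine/glycine-free diet, as had 1717 of 3116 genes. At least 1.5-fold higher were 4 (Tox, Lag3, Havcr2 and Ctla4), where 10.7% of 3116 genes were as much higher and 6.07% as much lower. The median log2 ratio was 1.30 for the 5 and 0.05 for the 3116. The gate held 553771 (-SG) and 248346 (control) UMIs, so a gene could reach 50 UMIs mainly through the serine/glycine-free library. Among the genes under that limit, Tigit and Cd160 were lower by CPM and Rgs16 and Tox2 higher. The counts and the median of the 5 thus rest partly on which genes passed. Tox had 640 UMIs (1156 CPM) in 190 of 380 cells under the serine/glycine-free diet and 112 UMIs (451 CPM) in 50 of 133 under the control diet, a ratio of 2.56 (2.09 to 3.16). Thinned shares of Tox were 50.2% (-SG, 43.6 to 56.9) and 30.4% (control, 21.7 to 40.3). This was the widest ratio of Tox in any of the 4 gates.

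Ctla4 in other T cells stood at 836 CPM under the serine/glycine-free diet and 552 CPM under the control diet, a ratio of 1.52 (1.25 to 1.85). When other-lineage panels no longer kept cells out of the gate, its log2 ratio turned from 0.60 to -0.10. Lag3 had 55 (-SG) and 10 (control) UMIs (2.47, 1.25 to 5.43) and Havcr2 had 47 (-SG) and 7 (control) UMIs (3.01, 1.35 to 7.90), of which 5 of the 7 control UMIs came from 1 cell. Entpd1 had 63 (-SG) and 20 (control) UMIs (1.41, 0.843 to 2.47). The sparse counts of Lag3 and Havcr2 thus leave wide intervals. The myeloid panel in other T cells reached 228 CPM in the serine/glycine-free library (0.810% of its level in myeloid cells) and 153 CPM in the control library (0.584%), and its part in these ratios was not tested. Without Mki67 or Top2a cells, 1 gene in place of 4 was at least 1.5-fold higher.

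The Tox difference appeared in both Cd4-positive and Cd4-negative other T cells. With a Cd4 UMI (62 cells under the serine/glycine-free diet and 22 under the control diet), Tox stood at 1446 (-SG) and 517 (control) CPM (2.80, 1.75 to 4.70), and without one (318 cells in -SG and 111 in control) at 1083 (-SG) and 439 (control) CPM (2.47, 1.97 to 3.12). Ctla4 had ratios of 1.89 (1.31 to 2.81) and 1.28 (1.02 to 1.62) in the same pair of subsets. Cells with Trdc or Tcrg-C1, genes of gamma-delta T cells, were 13 of 380 under the serine/glycine-free diet and 17 of 133 under the control diet, and held 11 (-SG) and 12 (control) Tox UMIs. Tigit had 22 (-SG) and 12 (control) UMIs in other T cells, at 39.7 (-SG) and 48.3 (control) CPM. Cd160 had 27 (-SG) and 13 (control), at 48.8 (-SG) and 52.3 (control) CPM. Rgs16 had 19 (-SG) and 4 (control), at 34.3 (-SG) and 16.1 (control) CPM. Tox2 had 5 (-SG) and 1 (control), at 9.03 (-SG) and 4.03 (control) CPM. All of these were under 50 UMIs.

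In NK cells, 5 of the 9 genes reached 50 UMIs. Ctla4, Tox and Entpd1 were at least 1.5-fold higher, 3 of 5, where 8.79% of 3698 genes were as much higher and 4.95% as much lower. The median log2 ratio was 0.64 for the 5 and 0.07 for the 3698. Tox stood at 177 CPM under the serine/glycine-free diet and 109 CPM under the control diet (1.62, 1.16 to 2.27), and Ctla4 at 200 (-SG) and 116 (control) CPM (1.72, 1.25 to 2.38). Both levels lie below those in the T-cell gates. In B cells Tox stood at 137 (-SG) and 107 (control) CPM, and Ctla4 at 36.3 (-SG) and 322 (control) CPM. Entpd1 stood there at 75.2 (-SG) and 107 (control) CPM, and the control values rest on 17 B cells. The NK levels of these genes thus do not all lie above those of B cells. With gates on thinned counts, 1 gene in place of 3 was at least 1.5-fold higher.

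Entpd1 in NK cells stood at 101 CPM under the serine/glycine-free diet and 64.7 CPM under the control diet (1.56, 1.0 to 2.45), below its level in myeloid cells. The myeloid panel in NK cells reached 118 CPM in the serine/glycine-free library (5 of 6 genes, Csf1r at 0) and 58.1 CPM in the control library (4 of 6, Csf1r and Adgre1 at 0), 0.420% (-SG) and 0.222% (control) of its level in myeloid cells. Cd160 and Havcr2 showed no detectable difference in NK cells, at 94.8 (-SG) and 96.2 (control) CPM (0.986, 0.653 to 1.48) and 88.5 (-SG) and 81.3 (control) CPM (1.09, 0.704 to 1.68). The other genes stayed under 50 UMIs. Lag3 had 11 (-SG) and 22 (control) UMIs, at 23.2 (-SG) and 36.5 (control) CPM. Rgs16 had 15 (-SG) and 31 (control) UMIs, at 31.6 (-SG) and 51.4 (control) CPM. Both were thus lower by point value under the serine/glycine-free diet. Tigit had 18 (-SG) and 12 (control) UMIs, at 37.9 (-SG) and 19.9 (control) CPM, and Tox2 0 (-SG) and 0 (control).

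Gates were ranked by thinned detection for Ctla4 and Tox, and some were compared for Havcr2, Entpd1 and Cd160. Ctla4 was detected in 83.9% of regulatory T cells in each library, ahead of other T cells (35.2% in -SG and 32.5% in control) and CD8 T cells (34.2% in -SG and 25.6% in control), whose intervals overlap, and NK cells (10.8% in -SG and 7.93% in control). Tox ran from regulatory T cells (66.8% in -SG and 60.3% in control) through CD8 T cells (59.1% in -SG and 47.7% in control) and other T cells (50.2% in -SG and 30.4% in control) to NK cells (18.5% in -SG and 12.1% in control), with overlapping intervals between regulatory and CD8 T cells. Havcr2 was detected in 21.4% (-SG) and 11.5% (control) of CD8 T cells and 9.19% (-SG) and 7.51% (control) of myeloid cells, with intervals that overlap in the control library. Entpd1 was detected in 20.3% of CD8 T cells and 14.5% of myeloid cells under the serine/glycine-free diet. Under the control diet Entpd1 was level, at 9.74% of CD8 T cells, 9.70% of myeloid cells and 11.4% (3.69 to 25.0) of endothelial cells, and its CPM there was 130 in CD8 T cells and 153 in endothelial cells. Cd160 was detected in 12.6% (-SG) and 8.69% (control) of CD8 T cells and in 11.7% (-SG) and 10.9% (control) of NK cells, which do not differ beyond their intervals.

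**Figure D4:**
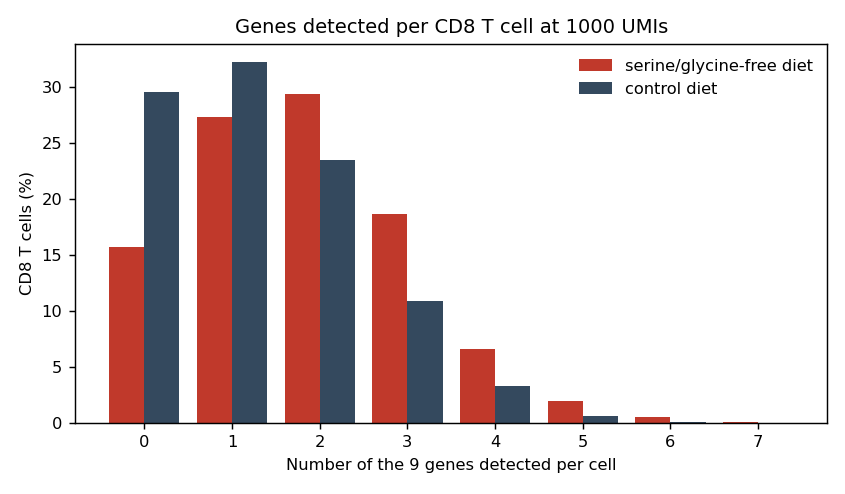
Share of CD8 T cells (vertical axis, %) by the number of the 9 genes detected per cell after thinning to 1000 UMIs (horizontal axis), serine/glycine-free diet in red and control diet in dark, 1 library each. None of the genes was detected in 15.7% of cells under the serine/glycine-free diet and 29.5% under the control diet, and the serine/glycine-free bars are the taller ones from 2 genes upward.

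Several of the genes were found together in single CD8 T cells, in a larger share of cells under the serine/glycine-free diet. Such a share also rises when single genes are detected more often, and the part of that was not tested. At equal depth 27.7% (24.1 to 31.5) of 587 cells under the serine/glycine-free diet and 14.8% (10.4 to 20.2) of 224 under the control diet had a UMI of at least 3 of the 9 genes, a ratio of 1.87 (1.33 to 2.62). The mean number of genes detected was 1.81 (-SG) and 1.28 (control). Without thinning the shares were 51.7% (47.9 to 55.6) of 661 cells under the serine/glycine-free diet and 41.8% (35.4 to 48.4) of 232 under the control diet, a ratio of 1.24. In regulatory T cells the thinned shares were 28.7% (-SG, 11.7 to 51.8) and 15.0% (control, 4.28 to 33.9). Other T cells had 13.8% (-SG, 9.65 to 19.0) and 5.43% (control, 1.92 to 11.8). NK cells had 2.11% (-SG, 0.508 to 5.66) and 0.787% (control, 0.0240 to 4.14). The intervals overlap in each of these gates. Unthinned shares were 34.4% (-SG) and 33.3% (control) in regulatory T cells and 16.6% (-SG) and 11.3% (control) in other T cells. In NK cells they ran the other way, at 9.66% (-SG) and 20.9% (control). Within the CD8 T gate the thinned shares were 29.9% (-SG, 25.4 to 34.7) and 13.2% (control, 8.18 to 19.7) in non-cycling cells. Cycling cells had 23.3% (-SG, 17.6 to 29.8) and 18.1% (control, 10.2 to 28.6), which overlap. CD8 T cells with NK-panel UMIs had 31.2% (-SG, 24.4 to 38.8) and 25.1% (control, 14.5 to 38.3), which overlap. Without thinning these last cells had 73.0% (-SG) and 77.2% (control).

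Co-detection was set against the number of cells expected from the product of the single shares, computed within 3 depth classes of each library, because deep cells show more genes of every kind. Havcr2 and Entpd1 were found together in 111 CD8 T cells under the serine/glycine-free diet and 26 under the control diet, 1.44 (-SG) and 1.66 (control) times the product. Havcr2 and Rgs16 met in 62 (-SG) and 26 (control) cells, 1.45 (-SG) and 1.70 (control) times the product, and Lag3 and Havcr2 in 99 (-SG) and 26 (control) cells, 1.31 (-SG) and 1.36 (control) times. For comparison, Mki67 gave 0.85 to 1.18 (-SG) and 0.91 to 1.24 (control) with the 8 genes that reached 50 UMIs, and Cd3e, which encodes a CD3 subunit, gave 0.90 to 1.12 (-SG) and 0.96 to 1.24 (control). The 3 pairs of Havcr2 named here lay above both ranges in each library, and the ratios carry no interval. Havcr2 with Tigit (1.09 in -SG and 0.98 in control) or Cd160 (0.96 in -SG and 0.71 in control) did not in either. Havcr2 with Tox or Ctla4 did so only under the control diet. Tigit with Entpd1 or Ctla4 did so in each library, so this was not particular to Havcr2. Cd3e, a gene of the gate, was found in 424 of 661 (-SG) and 150 of 232 (control) cells. This limits how high its ratios could go, so its range is a weak reference.

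Cd160 met most of the other genes at ratios near 1, and Rgs16 above it. Over both libraries Cd160 met Lag3 at 0.92, Havcr2 at 0.92, Entpd1 at 0.96, Ctla4 at 1.05, Tigit at 1.09, Tox at 1.12 and Rgs16 at 1.24 times the product. Its pairs with Tigit (1.18 in -SG and 0.78 in control) and Entpd1 (0.95 in -SG and 1.03 in control) lay on opposite sides of 1 by library. Tigit met Entpd1 at 1.27 times the product under the serine/glycine-free diet and 1.69 times under the control diet, and Ctla4 at 1.21 (-SG) and 1.27 (control) times. Pdcd1 met the 8 genes at ratios between 1.08 with Cd160 and 1.25 with Lag3 over both libraries.

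Tcf7 met each of the 8 genes in fewer cells than the product. None of the 73 Tcf7-positive CD8 T cells (50 under the serine/glycine-free diet and 23 under the control diet) had a Havcr2 UMI, where the product gave 18.2 cells, and a count of 0 in 73 allows a share of cells with a UMI of up to 4.11%, which at this depth says nothing of cells that express Havcr2 without a UMI. Entpd1 was detected in 3 of the 73 against 18.9 by the product, and Rgs16 in 1 against 11.3. Lag3 met Tcf7 in 8 cells against 20.0, at 0.23 times the product under the serine/glycine-free diet and 0.71 times under the control diet. Tox and Ctla4 were less scarce, in 32 of 73 cells against 48.9 and in 23 against 33.0. Tcf7-positive cells were shallow under the serine/glycine-free diet, at a median of 1330.5 UMIs against 1797 in Tcf7-negative cells, and at 2541 against 2355 under the control diet.

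**Figure D5:**
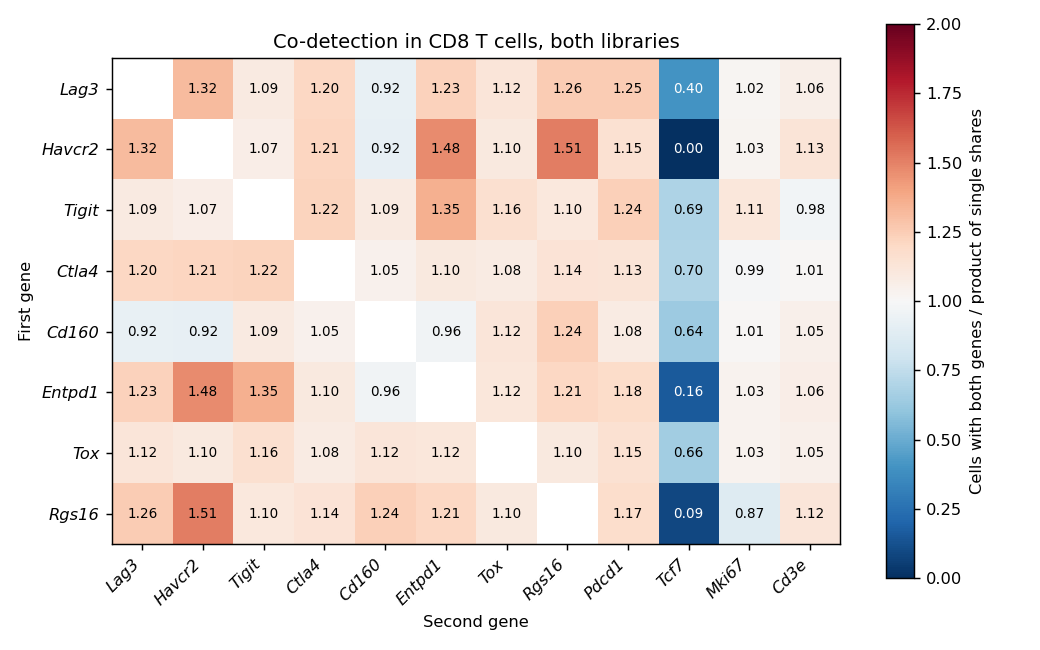
Cells with UMIs of both genes divided by the product of the single shares within 3 depth classes, in CD8 T cells of both libraries together; rows are 8 of the genes (Tox2 had too few UMIs), columns the same genes plus Pdcd1, Tcf7, Mki67 and Cd3e, red above 1 and blue below 1. The Tcf7 column is blue throughout, at 0.00 with Havcr2 and 0.16 with Entpd1, and the pair of Havcr2 and Rgs16 stands at 1.51.

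Related genes in CD8 T cells gave a mixed picture. Of 12 other inhibitory receptors, 8 reached 50 UMIs, 5 with point values above 0 and 3 below, with a median log2 ratio of 0.19. At least 1.5-fold higher was 1, and 2 were as much lower, beside 6.3% and 3.98% of all 6029 genes. Lilrb4a, an inhibitory receptor of the immunoglobulin family, was lower at 41.0 CPM under the serine/glycine-free diet and 92.4 CPM under the control diet (log2 -1.17, -1.72 to -0.63), and Cd101 at -0.61 (-1.47 to 0.27). Cd200r1 was higher at 60.7 (-SG) and 35.8 (control) CPM (0.76, 0.10 to 1.48), and Vsir had 0.38 (-0.22 to 1.01).

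Of 18 other factors linked to exhaustion, 14 reached 50 UMIs, 3 with point values above and 11 below 0, and none was 1.5-fold apart in either direction. Their median log2 ratio was -0.18, where 3271 of all 6029 genes were higher and 2758 lower. Tbx21, which encodes the effector factor T-bet, stood at 97.5 CPM under the serine/glycine-free diet and 142 CPM under the control diet (-0.54, -0.93 to -0.15). Ikzf2, which encodes Helios, stood at 446 (-SG) and 575 (control) CPM (-0.37, -0.55 to -0.18). Nr4a3 at -0.51 (-1.12 to 0.12) and Irf4 at -0.39 (-1.13 to 0.38), both induced by T-cell receptor signals, had intervals that include 0.

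All 9 costimulatory receptors reached 50 UMIs, 7 with point values above 0 and 2 below, with a median log2 ratio of 0.14, and none was 1.5-fold apart. Cd226, the activating rival of Tigit for PVR, stood at 489 CPM under the serine/glycine-free diet and 332 CPM under the control diet (0.56, 0.34 to 0.78), and Cd2, an adhesion receptor, at 285 (-SG) and 218 (control) CPM (0.39, 0.11 to 0.67). Cd27 at 0.25 (-0.10 to 0.61) and Icos at 0.24 (-0.01 to 0.50) had intervals that include 0. Tigit and Cd226 were thus both higher by point value.

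Of 7 other RGS genes, 5 were counted, 3 with point values above 0 and 2 below (median 0.14), and none was 1.5-fold apart. Rgs1 was lower like Rgs16, at 391 CPM under the serine/glycine-free diet and 499 CPM under the control diet (-0.35, -0.55 to -0.15), while Rgs3 had 0.35 (-0.01 to 0.72), Rgs19 0.31 (-0.36 to 1.02) and Rgs10 0.14 (-0.57 to 0.90). Of 5 genes that act in the adenosine pathway beside Entpd1, 4 were counted and all 4 had point values below 0 (median -0.17): Nt5e, which encodes CD73, the next enzyme after CD39, -0.80 (-1.64 to 0.04), Adora2a, the adenosine receptor, -0.20 (-1.04 to 0.69), Cd38 -0.14 (-0.69 to 0.42) and Ada, which degrades adenosine, -0.04 (-0.91 to 0.89). None of these 4 intervals excludes 0, so no difference in these genes was detectable at this depth.

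Of 11 genes of ligands, 5 were counted in CD8 T cells, 4 with point values above 0 and 1 below (median 0.35). Of these, 2 were at least 1.5-fold higher, where 6.3% of all 6029 genes were. Cd80, a ligand of CTLA-4, stood at 79.1 CPM under the serine/glycine-free diet and 44.7 CPM under the control diet (0.82, 0.23 to 1.46), and Lgals3, which encodes galectin-3, had 0.70 (0.53 to 0.86). Cd86 at -0.49 (-1.13 to 0.16) and Lgals9 at 0.35 (-0.28 to 1.02) had intervals that include 0.

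Across 8 gates in 2 libraries (16 points), the genes whose log2(CPM + 1) followed each member most closely were described by Pearson's r, with no test, since points of a library share its depth and gates differ in size. Igflr1 (0.99), Camk4 (0.98) and Cd27 (0.98) were most like Tigit, and Tnfrsf18 (0.98), Cd2 (0.96) and Sik3 (0.96) most like Ctla4. Gm2682 (0.98), Cd96 (0.97) and Abcb9 (0.96) were most like Cd160, and Il3ra (0.98), Gng2 (0.96) and Pfkfb3 (0.96) most like Entpd1. For Tox these were Gpr174 (0.97), Cnot6l (0.97) and Zdhhc18 (0.97), for Lag3 Xlr4a (0.95), Smpd5 (0.94) and Gm39323 (0.94), for Havcr2 Ppp1r3b (0.95), Pstpip1 (0.94) and Galnt3 (0.94), and for Rgs16 Bhlhb9 (0.89), Ociad2 (0.89) and Ppm1j (0.89). Tox2, with 49 UMIs over these points, was left out. Between members, Tox and Ctla4 had r = 0.94 and Lag3 and Tigit 0.92.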

How the data were processed

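The deposited values are raw counts of UMIs that the authors made with Cell Ranger, version 7.0.1 per the file headers but 2.2.2 with mm10 per the submitters' processing notes. No source used here gives the annotation release or intron handling. The libraries held 20662 barcodes (173592046 UMIs, serine/glycine-free diet) and 14774 barcodes (173785388 UMIs, control diet), of which 87 barcodes occurred in both. Titles abbreviate the diets, and were read with the design text.

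Cells needed 500 UMIs, 300 genes and at most 20% mitochondrial UMIs. Scrublet (scanpy 1.11.5, expected rate 0.8% per 1000 cells) then removed 2431 cells (12.0%) of the serine/glycine-free library and 682 (4.82%) of the control library, among them 4.06% (-SG) and 0.429% (control) of CD8 T cells. T cells had at least 2 UMIs of Cd3d, Cd3e, Cd3g and Trac, more than of myeloid, B or tumour panels, and under 2 NK-panel UMIs. CD8 T cells had Cd8a or Cd8b1 and neither Cd4 nor Foxp3, regulatory T cells had Foxp3 and no Cd8a or Cd8b1, and NK cells had 2 NK-panel UMIs, more than of those panels, and no CD3 gene. Other cells needed 3 UMIs of their panel and no T or NK UMI (tumour cells also no Ptprc). T cells with Cd8a or Cd8b1 and with Cd4 or Foxp3 (11 in -SG and 6 in control) were set aside.

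CPM ratios carry exact conditional intervals, CPM Poisson intervals and shares Clopper-Pearson intervals. Thinned detection is the exact expectation of drawing 1000 UMIs without replacement. Genes with under 50 UMIs over both libraries were not counted. The ratio intervals were run on simulated independent Poisson counts, the model they assume. That run could not show whether they hold where the UMIs of a gene cluster in single cells. All members are named in each gate. From other lists the up to 4 genes with the largest absolute log2 ratio in CD8 T cells are named, and the 3 likest genes per member were computed. One subset of T cells is not reported here. The members, lists, gates and motifs were chosen with earlier results of these data known. Software was Python 3.11.15, numpy 2.4.6, scipy 1.17.1, pandas 2.3.3, anndata 0.12.19 and matplotlib 3.10.9. Promoter sequences are from RefSeq (GRCm38.p6).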

Additional observations from a re-analysis of the deposited data

Results flagged for a closer look

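Ctla4 had opposite diet ratios in CD8 T cells and in T cells that had both Cd8a or Cd8b1 and NK-panel UMIs. Its log2 ratio of the serine/glycine-free over the control library was 0.37 (0.16 to 0.58) in the CD8 T gate and -0.39 (-0.69 to -0.08) in the 174 (-SG) and 57 (control) cells with NK-panel UMIs, where it stood at 476 CPM under the serine/glycine-free diet and 622 CPM under the control diet. The counting intervals lie on opposite sides of 0, and the difference between these sets of cells was not tested, since each diet has 1 library.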

How the results depend on the processing

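No paired analysis was possible because each diet has 1 library. The number of genes at least 1.5-fold higher in CD8 T cells was 2 instead of 4 with at least 2 Cd8a and Cd8b1 UMIs, with doublets kept, without mitochondrial and ribosomal-protein genes, and with median-ratio scaling; the number lower was 1 instead of 0 with gates on thinned counts. In regulatory T cells 1 instead of 0 was higher with median-ratio scaling. In other T cells 1 instead of 4 was higher without Mki67 or Top2a cells, where 3 genes were counted. In NK cells 1 instead of 3 was higher with gates on thinned counts, 1 instead of 0 lower with no other-lineage panels, and 2 instead of 0 lower with a minimum of 20 UMIs. The ratio of CD8 T cells with at least 3 of the genes was 1.24 without thinning, against 1.87, and 1.67 to 2.27 under the other alternatives run. Ctla4 in other T cells reversed to a log2 ratio of -0.10 with no other-lineage panels, against 0.60. The causes of these shifts were not tested.

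Of 226 log2 ratios of single genes under alternatives, 211 stayed within the counting interval of the value reported, and 10 changed sign. In CD8 T cells, Entpd1 ranged from 0.76 to 1.47, Havcr2 from 0.66 to 1.29, Tigit from 0.23 to 0.90, Cd160 from 0.50 to 0.82, Tox from 0.21 to 0.44, Lag3 from 0.11 to 0.33, Ctla4 from 0.14 to 0.54 and Rgs16 from -0.66 to 0.01. Of these alternatives, the one that added CD8 cells with NK-panel UMIs to the gate was chosen after seeing the data, and gave Ctla4 its lowest value of 0.14. Tox in other T cells ranged from 0.59 to 1.54, and Havcr2 there had 3.24, against 1.59, without the cell of each library that held most of its UMIs. With gates on thinned counts, Ctla4 in regulatory T cells had -0.33 and Tox there had 0.06. Detection in B and presumed tumour cells stayed within its intervals with T or NK panel UMIs allowed.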

Other observations

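The ligands of these receptors were read in myeloid and presumed tumour cells. The share of all genes higher or lower was not computed in these gates, so the counts of ligand genes have no background to compare with. In myeloid cells 9 of 11 ligand genes reached 50 UMIs, 4 higher and 5 lower, with a median log2 ratio of -0.00. Cd86, a ligand of CTLA-4, stood at 279 CPM under each diet, Cd80 at 60.7 CPM under the serine/glycine-free diet and 70.9 CPM under the control diet, and Lgals9, a ligand of TIM-3, at 93.0 (-SG) and 114 (control) CPM. In tumour cells 10 were counted, 8 higher and 2 lower, with a median of 0.07. Pvr, the ligand of TIGIT and CD226, stood there at 44.4 CPM under the serine/glycine-free diet and 42.2 CPM under the control diet, and Lgals9 at 27.4 (-SG) and 24.0 (control) CPM.

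Presumed tumour cells held UMIs of the members at low levels, in proportions unlike those of CD8 T cells. Ctla4 reached 9.33 CPM under the serine/glycine-free diet and 7.93 CPM under the control diet, 1.89% (-SG) and 2.08% (control) of its level in CD8 T cells, and Rgs16 reached 1.65% (-SG) and 2.06% (control). Tox reached 0.0336% (-SG) and 0.0109% (control), and Cd160 0.129% (-SG) and 0.108% (control). Rgs16 was lower in tumour cells under the serine/glycine-free diet too, at 206 UMIs (1.75 CPM) against 414 UMIs (2.91 CPM) under the control diet (log2 -0.73, -0.98 to -0.49).

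Entpd1 was also higher in myeloid cells under the serine/glycine-free diet, at 156 CPM against 99.2 CPM under the control diet (log2 0.65, 0.51 to 0.79), with detection in 35.1% (-SG) and 33.3% (control) of cells, and thinned detection in 14.5% (-SG) and 9.70% (control).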
